A study of Homo sapiens with 6 samples.

Results

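The NKX genes encode homeodomain transcription factors of the NK family, and 9 of them (NKX2-1, NKX2-2, NKX2-3, NKX2-4, NKX2-5, NKX2-8, NKX3-2, NKX6-1 and NKX6-2) were followed here, each through the array probe whose transcript accession belongs to it. They make up 9 of the 20503 genes that could be named on the array, with 1 probe and 1 spot each. The 9 were chosen by family with earlier values of the same comparison in view, above all the difference of NKX2-4 between the groups, so that their own differences are given as a description and not as a test. RNA came from 3 separate experiments with A673/TR/empty and A673/TR/LOX-PP cells and was hybridised to 6 Agilent arrays in 1 colour, 3 per line. Whether arrays of the same replicate number come from the same experiment is not given. A673 is an Ewing sarcoma cell line that carries the EWS/FLI1 fusion, TR stands for the tetracycline repressor, the empty cells hold the lentiviral vector without a LOX sequence, and the LOX-PP cells hold the propeptide of lysyl oxidase, switched on by doxycycline. All 6 samples carry the label of 1 µM doxycycline for 72 h, whereas the text of the study names the treatment clearly for the LOX-PP cells alone, so the treatment of the control cultures is not settled. The cells were selected with zeocin as stable clones, and whether each group on the arrays is 1 clone is not given. Clone and construct therefore cannot be told apart in any difference below.

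Factors of the NK2 and NK6 groups set the identity of cells along the ventral neural tube, foregut and heart. Many of them act as repressors that recruit Groucho/TLE corepressors. NKX2-2 marks ventral neural progenitors and pancreatic islet cells, and in Ewing sarcoma it is a well known gene switched on by EWS/FLI1 and used as a diagnostic marker. NKX2-4 is the closest relative of NKX2-1, the regulator of thyroid, lung and ventral forebrain, and lies beside NKX2-2 on chromosome 20. NKX6-1 acts in motor neuron progenitors and beta cells, NKX6-2 in myelinating glia, NKX2-5 and NKX2-3 in heart and in gut and spleen mesenchyme, NKX2-8 in the ventral foregut and neural tube, and NKX3-2 in the sclerotome and early cartilage.

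The windows of 250 bases before the annotated start show how far the close relatives resemble each other outside the coding region. RefSeq (GRCh38.p14) gave windows for 7 of the 9 genes, 9 windows in all, since NKX2-1 and NKX2-2 have a pair of starts each. Of the 34 pairs of windows from different genes, NKX2-1 and NKX2-4 shared the longest run of identical bases, 14, compared with a median of 9 and a next longest of 11. That run is set in capitals below. It was found in 3 of the 35116 windows of the table, those of NKX2-1, NKX2-4 and SFTA3.
NKX2-1, chr14:36519557-36519806, minus strand: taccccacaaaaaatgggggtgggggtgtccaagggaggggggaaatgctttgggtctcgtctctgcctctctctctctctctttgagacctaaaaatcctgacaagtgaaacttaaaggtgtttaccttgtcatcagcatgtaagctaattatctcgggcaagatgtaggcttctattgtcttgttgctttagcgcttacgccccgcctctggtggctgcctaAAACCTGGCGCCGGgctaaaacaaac
NKX2-4, chr20:21397527-21397776, minus strand: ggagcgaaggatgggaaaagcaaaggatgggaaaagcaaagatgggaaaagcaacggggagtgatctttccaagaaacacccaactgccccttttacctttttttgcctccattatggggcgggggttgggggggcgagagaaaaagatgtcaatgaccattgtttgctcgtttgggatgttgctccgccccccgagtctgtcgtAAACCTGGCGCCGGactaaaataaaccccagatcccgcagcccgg
The run ends 12 bases before the start of NKX2-1 and 31 bases before that of NKX2-4. The following windows are those of NKX2-2 and NKX6-1, the other members with the highest differences among those measured on every array, with the TATAAA letters in capitals.
NKX2-2, chr20:21512961-21513210, minus strand: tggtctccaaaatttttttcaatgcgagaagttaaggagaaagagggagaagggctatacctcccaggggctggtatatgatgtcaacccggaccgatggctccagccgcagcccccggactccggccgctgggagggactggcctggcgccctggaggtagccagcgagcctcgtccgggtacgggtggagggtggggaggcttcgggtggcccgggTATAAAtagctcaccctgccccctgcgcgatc
NKX6-1, chr4:84499293-84499542, minus strand: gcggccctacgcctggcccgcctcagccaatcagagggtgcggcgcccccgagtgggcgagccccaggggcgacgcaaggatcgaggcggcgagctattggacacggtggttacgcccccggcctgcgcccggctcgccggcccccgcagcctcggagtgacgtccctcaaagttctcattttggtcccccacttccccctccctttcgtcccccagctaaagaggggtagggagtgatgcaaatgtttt
TATAAA was searched on both strands and found in 1 of the 9 member windows and in 3763 of all windows. The NK2 consensus TNAAGTG was found in 0 of the 9 and in 8.73% of all windows, and the repeat GGAAGGAA, the kind of site that EWS/FLI1 binds, in 0 of the 9 and in 3.06% of all. The GC content of the member windows lay between 49.6% and 71.6%, around a median of 58.0% over all windows. No factor binding was measured here.

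The signal of each probe is given as log2 over the 75th percentile of its array. Between 56.9% and 74.8% of the gene spots of an array were flagged by the extraction software as well above background. The median signal of the negative control spots ran from 8.67 to 108 between arrays, so dim values are less certain on some arrays than on others. Replicate 1 of the LOX-PP arrays was on a slide and scan of its own. LOX has a single probe, which gave -0.09, 0.36 and 0.11 in the empty cells and -0.12, -0.68 and -1.29 in the LOX-PP cells (difference -0.95, adjusted p = 0.216). It was not higher where the propeptide was to be induced. Whether this probe lies in the part of LOX that the vector holds was not determined, so it cannot check the labels, and directions below rest on them. The Ewing sarcoma markers taken for this check (NR0B1, STEAP1, PRKCB, LIPI, CCND1 and CD99) were well above background on every array, and none of the 6 passed the threshold between the groups. The comparison by limma took in the 32548 probes that 3 or more of the 6 arrays measured well above background, and the median difference over all of them was 0.13 on the log2 scale (-0.03 under quantile normalization). Less RNA per cell and fewer cells that hold it cannot be told apart in such cultures, and p-values measure the spread between the 3 cultures of a group. Differences, as LOX-PP minus empty, are given relative to that median throughout, whereas the test is of the difference itself.

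Of the 9 members, 5 were well above background on all 6 arrays (NKX2-2, NKX2-3, NKX2-5, NKX3-2 and NKX6-1) and 6 were tested, these with NKX2-4. NKX2-4 differed most. Its log2 signal was -5.15, -6.08 and -6.28 on replicates 1 to 3 of the empty arrays and 0.49, 0.79 and 0.71 on those of the LOX-PP arrays. All LOX-PP arrays were high and close together, all empty arrays were near the background, and the gap between the groups was 5.65. As spot intensity this was 215, 92.7 and 79.7 against 4010, 10826 and 5463. Only replicate 1 of the empty arrays measured it well above background. The group means were -5.84 ± 0.60 (SD, n = 3) and 0.67 ± 0.15 (SD, n = 3), and the difference was 6.38 with an SE of 0.33, or 83.2-fold. The size of this difference depends on how the dim arrays are treated. It was 29.1-fold with normexp background correction and 19.7-fold when all arrays shared one floor, and it stayed between 6.09 and 6.74 on the log2 scale when single arrays were left out.

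NKX2-2, its neighbour on chromosome 20, was bright on every array. Its log2 signal was 1.31, 0.71 and 1.08 in the empty cells and 1.77, 2.01 and 2.27 in the LOX-PP cells. The groups did not overlap, with a gap of 0.46. The means were 1.03 ± 0.30 and 2.02 ± 0.25 (SD, n = 3 each), and the difference was 0.86 with an SE of 0.26, or 1.81-fold. It ran from 0.73 to 1.11 over the 13 alternatives, some of which repeat the main value by construction. NKX2-2 passed the threshold of the fit over all probes in 1 of 17 alternatives, quantile normalization, and not in the setting reported here.

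NKX6-1, the motor neuron progenitor and beta cell factor, was the other member with a wide gap. It gave -2.83, -3.18 and -2.36 in the empty cells and -0.18, -0.75 and -0.21 in the LOX-PP cells, a gap of 1.61 between the groups. Every array measured it well above background, with intensities from 692 to 1210 on the empty arrays and from 2510 to 3711 on the LOX-PP arrays. The difference was 2.28 with an SE of 0.30, or 4.86-fold, and ran from 2.03 to 2.54 over the alternatives. NKX6-2, its closest relative, was near the background. It was well above background on 0 of the 3 empty arrays and 1 of the 3 LOX-PP arrays, replicate 1, and no size of difference can be given.

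NKX3-2, the sclerotome factor, was the only tested member with a clearly negative difference. It gave 0.38, 0.14 and -0.16 in the empty cells and -1.25, -0.57 and -0.68 in the LOX-PP cells. The groups did not overlap, with a gap of 0.41, and the lowest array was LOX-PP replicate 1. The difference was -1.08 with an SE of 0.27, and -0.91 without that array. It did not pass the threshold in the main setting or in any of the 17 alternatives.

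NKX2-5, the heart factor, had intensities from 124983 to 180176 on all 6 arrays, and no spot was saturated. Its log2 signal was 4.56, 4.46 and 4.68 in the empty cells and 5.94, 4.71 and 5.23 in the LOX-PP cells. The lowest LOX-PP array was 0.03 above the highest empty array. The difference of 0.60 (SE 0.33) rested on LOX-PP replicate 1 and was 0.24 without it. NKX2-3 overlapped between the groups, with -0.80, -1.40 and -0.66 in the empty cells and -0.44, -0.73 and -1.32 in the LOX-PP cells. Its difference was -0.01 with an SE of 0.32, and the sign turned in 6 of the 13 alternatives.

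The pair on chromosome 14 was at or near the background. NKX2-1 was well above background on 0 of the 6 arrays, with values from -8.38 to -5.87, so it has no fold. NKX2-8 was well above background on 2 of the 3 empty arrays and on 0 of the 3 LOX-PP arrays, with values from -6.33 to -3.55 and from -7.52 to -4.47. Once the background of the LOX-PP arrays was set as its lower limit there, no fold remained.

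In the fit over all probes, 2 of the 6 tested members had an adjusted p under 0.05, both higher on the LOX-PP arrays (NKX2-4 and NKX6-1), and 0 were lower. Over all tested probes the share was 5.67%, of which 3.31% were higher and 2.36% lower. The groups did not overlap for 5 of the 6 tested members, compared with 29.5% of all tested probes. Since the members were chosen with this comparison in view, nothing is read from these counts. NKX2-4 passed in 16 of the 16 alternatives in which it was tested. NKX6-1 passed in 15 of 17 and was lost without replicate 1 of the empty arrays and in the methods' t-test.

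**Figure D1:**
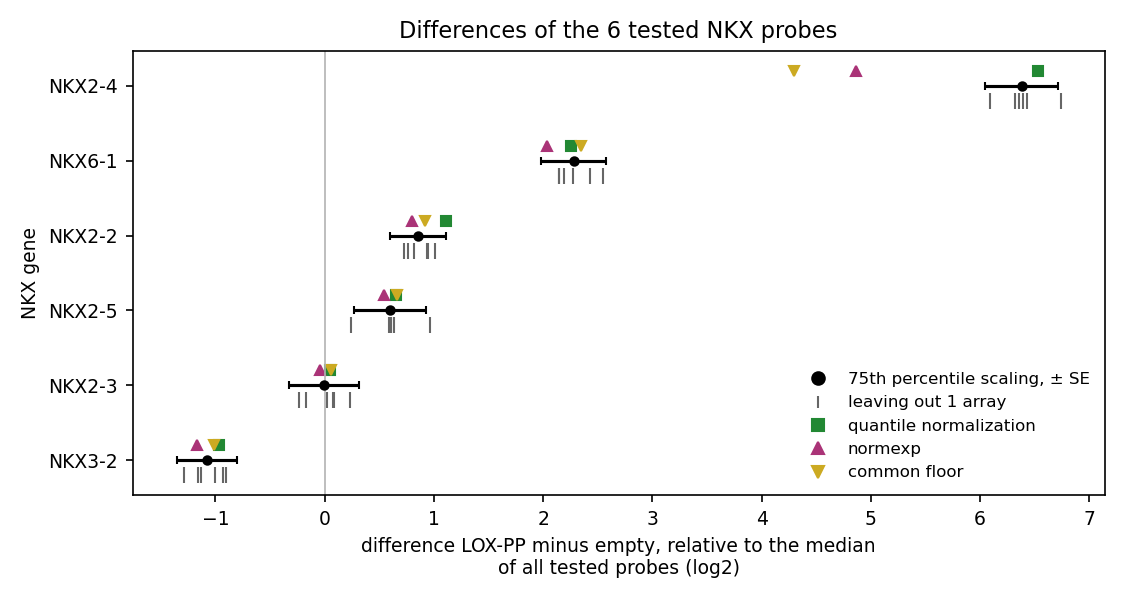
Difference LOX-PP minus empty on the log2 scale, relative to the median of all tested probes (horizontal axis), for the 6 tested NKX genes. Black points are the values with 75th percentile scaling ± SE, ticks the values with 1 array left out, and coloured marks other ways of processing. NKX2-4 falls from 6.38 to 4.86 with normexp and 4.30 with a common floor, NKX6-1 stays between 2.03 and 2.54, and NKX2-3 lies around 0.

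The genes beside NKX2-4 and NKX2-2 were compared next, because the choice of members did not use position. The 5 protein-coding genes with a probe on each side were taken, 10 in all, of which 6 were tested. PAX1, a sclerotome factor and the next gene beyond NKX2-2, rose. Its log2 signal was -3.40, -3.38 and -2.85 in the empty cells and 0.09, 0.27 and 0.87 in the LOX-PP cells, with every array well above background. The difference was 3.50 with an SE of 0.29, or 11.3-fold (Benjamini-Hochberg adjusted p = 0.00168 in limma), and it passed in 17 of 17 alternatives. KIZ, which encodes a centrosome protein, rose by 1.80 with an SE of 0.34 (adjusted p = 0.0251), a call kept in 10 of 17 alternatives and lost without replicate 1 or 2 of the empty arrays or replicate 2 or 3 of the LOX-PP arrays.

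XRN2, an exonuclease gene that lies between KIZ and NKX2-4, gave 2.45, 2.06 and 2.25 in the empty cells and 1.56, 2.49 and 2.97 in the LOX-PP cells, and the groups overlapped (difference -0.04, SE 0.38, adjusted p = 0.928). FOXA2, the floor plate and endoderm factor beyond PAX1, had a difference of 0.77 with an SE of 0.59 (adjusted p = 0.429) and overlapped as well. RALGAPA2 (0.34, adjusted p = 0.325) and SSTR4 (-0.03, adjusted p = 0.935) did not pass either. CFAP61 was well above background on at most 2 arrays, and INSM1, THBD and CD93 on 0. Along the gene order the differences were therefore uneven, from 1.80 at KIZ over -0.04 at XRN2 to 6.38, 0.86 and 3.50 at NKX2-4, NKX2-2 and PAX1. The median of the 6 tested neighbours was 0.55, whereas that of all 16551 genes tested was -0.09. It lies between RALGAPA2 and FOXA2, dim genes that were well above background on 5 arrays each and did not pass. Dim probes were higher on the LOX-PP arrays in general. The unadjusted median difference over all probes was 0.30 without the filter and 0.07 among those above background on all 6 arrays.

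**Figure D2:**
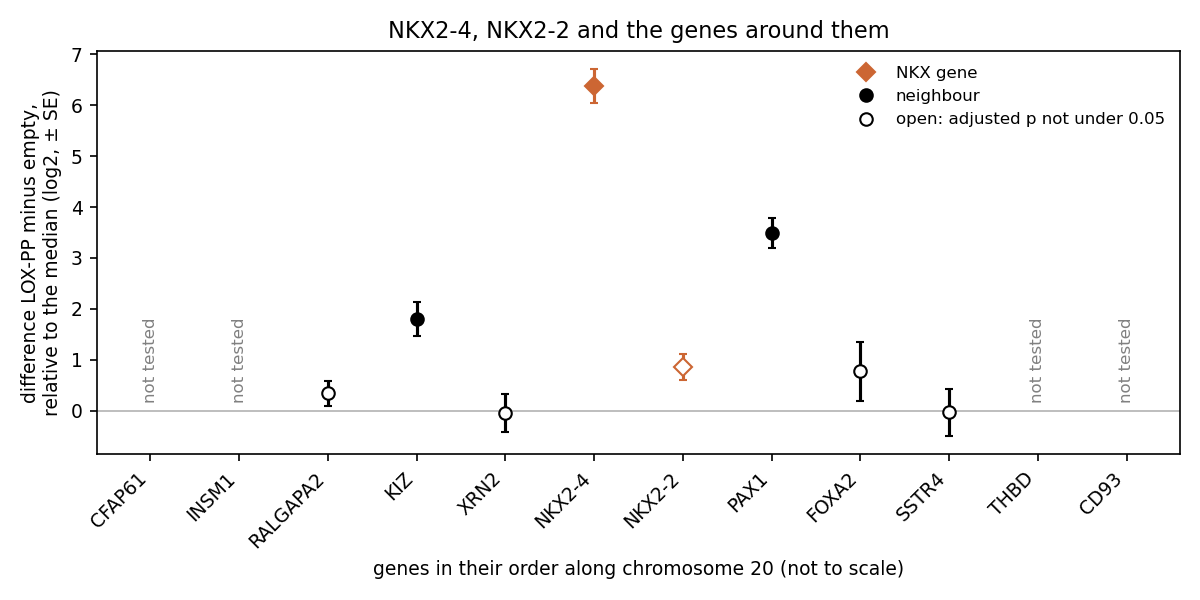
Difference LOX-PP minus empty on the log2 scale, relative to the median of all tested probes (± SE), for NKX2-4, NKX2-2 and the 5 genes on each side in their order along chromosome 20. Filled points have an adjusted p under 0.05. PAX1 (3.50) and KIZ (1.80) rose, and XRN2 between KIZ and NKX2-4 is at -0.04.

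Around all 9 members there were 70 such neighbours, and 54 were tested. Of these 5 rose and 1 fell, 6 in all, where 7.09% of all named genes tested passed. None of the 9 tested neighbours of NKX2-1 and NKX2-8 on chromosome 14 passed, PAX9 (-0.61, adjusted p = 0.269) among them, and none of those of NKX2-3 or NKX3-2. By NKX2-5, CREBRF, which encodes a stress response regulator, rose by 2.00 (SE 0.25, adjusted p = 0.00612). CPEB4, which encodes a regulator of mRNA translation, gave -5.55, -5.41 and -6.08 on the empty arrays, where 1 of the 3 was well above background, and -1.47, -1.47 and -0.92 on the LOX-PP arrays (adjusted p = 0.000793). ADGRA1, an adhesion receptor gene by NKX6-2, rose by 2.27 (SE 0.36, adjusted p = 0.0145), a call kept in 13 of 17 alternatives and lost without replicate 1 or 2 of the empty arrays. The fall was in PTPN13, a tyrosine phosphatase gene that lies 5 places from NKX6-1. It was well above background on every empty array and on 0 LOX-PP arrays, so its level there has only an upper limit (adjusted p = 0.000439). Against the floor of each LOX-PP array, the lowest signal among its probes well above background, it was at least 415-fold lower. That size depends on the floor taken, and the difference closest to 0 over the 16 alternatives was -7.60 on the log2 scale. The direct neighbours of NKX6-1 in the same order did not pass.

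The Groucho/TLE corepressors, which NK proteins recruit to silence their targets, were tested as the cofactors of the family. Of the 5 genes, 2 rose and 0 fell, and the median of the list was 0.26. Among all 16551 named genes tested 1173 passed (7.09%), which is the share to set beside this count and those of the lists below. TLE2 gave -0.39, -1.003 and -0.53 in the empty cells and 1.41, 1.49 and 1.94 in the LOX-PP cells, so that the groups were well apart. It rose by 2.13 with an SE of 0.27, or 4.37-fold (adjusted p = 0.00616), in 17 of 17 alternatives. TLE1 rose by 1.56 with an SE of 0.22 (adjusted p = 0.00829), a call lost without replicate 1 or 2 of the empty arrays. Its other probes gave 1.08 and 0.55 and did not pass. TLE3 (0.26, adjusted p = 0.542), TLE4 (-1.08, adjusted p = 0.0949) and TLE5 (-0.23, adjusted p = 0.839) did not pass, and TLE4 had the opposite sign. The other TLE4 probe gave only -0.17 (adjusted p = 0.937).

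Other homeobox genes of the NK-like class were taken next, 38 of them with a probe and 27 tested. Of these 2 rose and 3 fell, with a median of -0.15, so that 18.5% of the list passed. The DLX genes, known from forebrain and skeletal development, accounted for most: DLX1 fell by 2.00 (adjusted p = 0.0144), DLX2 fell by 1.48 (adjusted p = 0.0351) and DLX6 fell by 1.14 (adjusted p = 0.0434), while DLX4 rose by 1.49 (adjusted p = 0.0176). DLX6 and the NK gene NKX6-3 complete the 5 and were named after their values were seen. NKX6-3 rose by 1.05 (adjusted p = 0.0239), but it was well above background on 2 arrays of each group, the call held in 5 of 15 alternatives, and the lowest value over them was -0.06. NKX1-2 did not pass (0.04, adjusted p = 0.839). VAX1, also named after its values were seen, is not among the 5, since its brightest probe gave 0.35 (adjusted p = 0.268). Its other probe was past the threshold with a difference of -1.19 (adjusted p = 0.0431). All of these DLX calls were lost without replicate 1 or 2 of the empty arrays.

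Among the transcription factors of the neural tube domains, in which NKX2-2 and NKX6-1 act, 22 of 29 genes were tested. Of these 2 rose and 2 fell (18.2%), and the median was -0.05. FEV, an ETS factor of serotonergic neurons, which arise from the NKX2-2 domain, gave -1.42, -1.82 and -1.61 in the empty cells and 1.01, 1.28 and 0.82 in the LOX-PP cells. It rose by 2.53 with an SE of 0.23, or 5.77-fold (adjusted p = 0.00217), and passed in 17 of 17 alternatives. MNX1, the motor neuron factor, also rose, by 1.92 (adjusted p = 0.0214), in 8 of 16 alternatives. PAX7, a dorsal neural tube factor, fell by 2.05 (adjusted p = 0.0119), a call lost without replicate 1 or 2 of the empty arrays, while its other probe gave -0.34 (adjusted p = 0.674). OLIG2, the oligodendrocyte and motor neuron factor that borders the NKX2-2 domain, was well above background on 0 arrays.

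Marker lists of the tissues in which single members act were counted in the same way, without a test between lists. Of the 14 cardiac genes tested, for NKX2-5, 1 rose and 2 fell (21.4%). GATA6 rose by 3.14 (adjusted p = 0.00376), although by 1.16 with a common floor, where it no longer passed, and TNNI3, the cardiac troponin I gene, fell by 2.66 (adjusted p = 0.0047) and MEF2C fell by 2.31 (adjusted p = 0.00579). Of the 20 sclerotome and cartilage genes tested, for NKX3-2, 1 rose and 3 fell (20%). PAX1 is the one that rose, TBX18 fell by 3.13 (adjusted p = 0.0153), COL2A1, the main cartilage collagen gene, fell by 2.81 (adjusted p = 0.00182) and MATN3, named here after its value was seen, fell by 1.85 (adjusted p = 0.0235). COL2A1 was well above background on 1 of the 3 LOX-PP arrays, and with a common floor its difference was -0.52 and did not pass. The calls of TBX18 and MATN3 were kept in 11 and 8 of 16 alternatives, and both were lost without replicate 1 or 2 of the empty arrays or replicate 3 of the LOX-PP arrays, that of MATN3 also without replicate 3 of the empty arrays. Of 14 oligodendrocyte genes, 0 rose and 1 fell (7.14%). This was CLDN11, a myelin claudin gene, which fell by 2.51 (adjusted p = 0.04), a call kept in 8 of 16 alternatives. In the pancreatic islet list, in which NKX2-2 and NKX6-1 act, 0 of the 15 genes tested passed, and 6 of its genes were well above background on no array. In the thyroid and lung list of NKX2-1, 0 of 14 passed, SCGB3A1 with 0.44 (adjusted p = 0.313) for example.

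**Figure D3:**
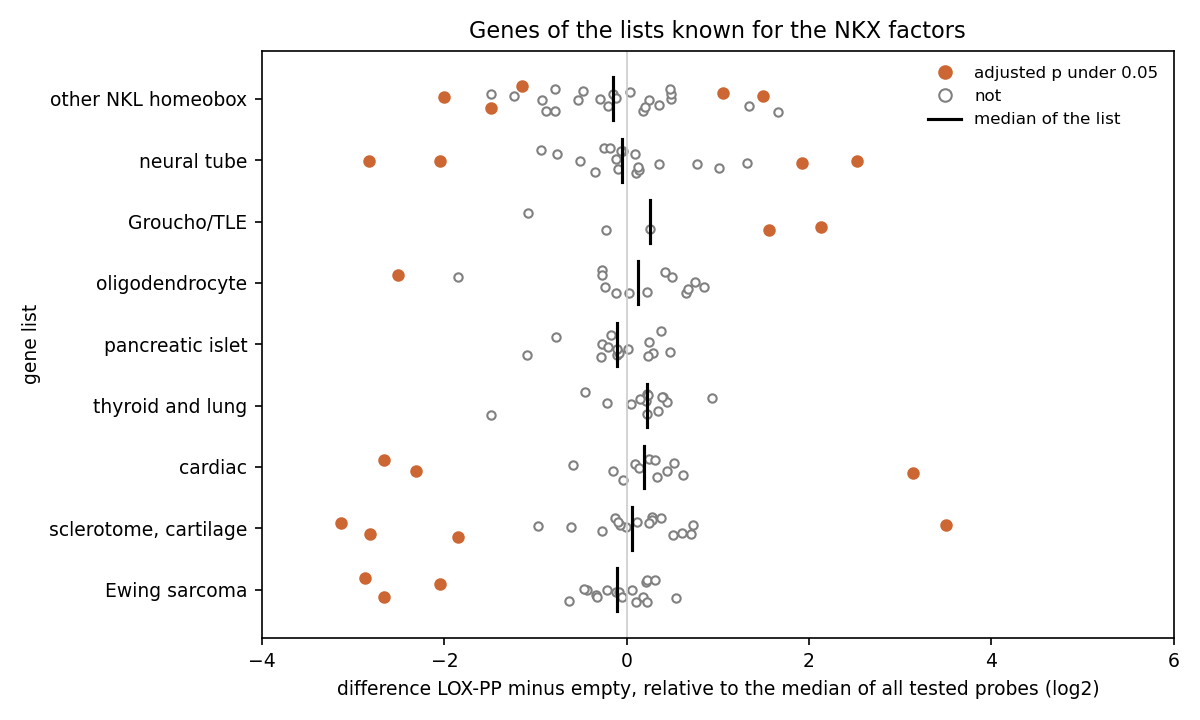
Difference LOX-PP minus empty on the log2 scale, relative to the median of all tested probes, for the tested genes of 9 lists (1 point per gene, brightest probe). Filled points have an adjusted p under 0.05 and bars are list medians. The medians lie between -0.15 and 0.26, and the islet and the thyroid and lung lists have no filled point.

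Of the 20 Ewing sarcoma genes, all tested, 0 rose and 3 fell (15%), and the median was -0.10. HEY1 fell by 2.87 (adjusted p = 0.0125), CCK fell by 2.66 (adjusted p = 0.01) and PAX7 is given above, whereas NR0B1, a defining target of EWS/FLI1, differed by -0.05 with an SE of 0.25 (adjusted p = 0.897). The calls of HEY1, CCK and PAX7 were all lost without replicate 1 or without replicate 2 of the empty arrays. Over the 12 lists together 9 genes rose and 13 fell of 161 tested (13.7%), beside 7.09% of all named genes tested. Markers of other cell types were also read. None of the 5 leukocyte genes passed, with CD14 at 0.26 and a list median of 0.22. None of the 4 tested endothelial genes passed either, and their median was 0.41. PECAM1 had a difference of 1.23 (adjusted p = 0.0952) with groups that did not overlap, VWF 0.70, CLDN5 0.12 and CDH5 -0.05. A second PECAM1 probe gave 2.00 (adjusted p = 0.229). A second VWF probe gave -0.34 (adjusted p = 0.722), so the probes of VWF differed in sign. The log2 of the summed endothelial signal ran from -1.41 to -0.70 in the empty cells and from -0.85 to -0.42 in the LOX-PP cells. Of the 5 epithelial genes, CLDN4 rose by 2.08 (adjusted p = 0.0257), a call kept in 8 of 17 alternatives and lost without replicate 1 or 2 of either group. EPCAM (0.49, adjusted p = 0.262) and KRT19 (-1.01, adjusted p = 0.0517) did not pass, KRT19 with groups that did not overlap and the opposite sign, and CDH1 and KRT5 were well above background on no array. The log2 of the summed epithelial signal ran from -1.76 to -1.16 on the empty arrays and from -0.70 to 0.22 on the LOX-PP arrays. The mean of CLDN4 went from -2.89 to -0.68 and that of KRT19 from -3.13 to -4.01. The part of these markers in the results was not tested.

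The genes whose signal followed NKX2-4 most closely over the 6 arrays were VASH1 (Pearson r = 0.998), CPEB1 (0.997), ZNF287 (0.997), KRT17 (0.997) and LTB4R (0.996). They differed by 1.47, 4.48, 1.02, 4.06 and 1.20, and CPEB1, like NKX2-4 itself, was well above background on 1 of the 3 empty arrays. Each r takes in the gap between the 2 groups and is a description over 6 arrays, and 31 of the 16551 genes had an r above 0.99. For NKX2-2 the nearest were MARK4 (0.995), RARA (0.992), CAMKV (0.991), CCNB3 (0.987) and ZNF93 (0.987), with differences from 0.55 to 1.45, and 3 genes had an r above 0.99.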

How the data were processed

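RNA of 6 cultures was measured on Agilent arrays. For every spot the authors deposited an intensity and its flags, as written by Agilent Feature Extraction (version 10.7 in the submitters' processing notes), and processed log2 values. The deposited log2 values matched the steps below, centred on each probe's median, within 0.01 on 50528 probes. How they were made is not given in the sources used here. Their column medians run from -0.34 to 0.41.

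Control and outlier spots (213 to 353 per array) were left out, log2 intensity was averaged per probe, and each array was scaled to its own 75th percentile. Tests covered the 32548 probes that 3 or more of the 6 arrays measured well above background, and were run with limma 3.58.1 in R 4.3.3 at a Benjamini-Hochberg adjusted p under 0.05. Accessions were named through RefSeq (28174 of 50599 probes). Its build, GRCh38.p14, differs from the hg19 annotation of the array, so only gene order and promoter windows were taken from it. Genes were represented by their brightest tested probe. The number of arrays limits the precision.

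The members and the gene lists were chosen with earlier results of these data known. All 9 members were named, with the neighbours of NKX2-2 and NKX2-4, all TLE genes, up to 3 genes past the threshold per list or else its brightest, other neighbours past the threshold, and the 5 genes closest in pattern. Some genes that this rule names are not reported here. The fit was tested on simulated data. Alternatives were other scalings, background corrections, filters, blocks, the methods' t-test, the authors' values and leaving out each array.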

Additional observations from a re-analysis of the deposited data

How the results depend on the processing

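The calls were limited by the number of arrays and, for dim probes, by the background. The 2 NKX probes past the threshold became 1 when only probes well above background on all 6 arrays were kept, which leaves NKX2-4 out, and 1 in the methods' t-test. Leaving out single arrays gave from 1 to 2, the 1 without replicate 1 of the empty arrays. The 6 neighbouring genes stayed within 1.5 times (4 to 8) throughout. The 22 list genes past the threshold became 9 without the filter on dim probes, 10 in the methods' t-test, and from 7 to 23 with single arrays left out, 7 without replicate 1 and 7 without replicate 2 of the empty arrays. Over all probes 1847 passed, 515 with no filter and 573 in the methods' t-test, and from 406 to 2065 with single arrays left out: 406 and 443 without replicates 1 and 2 of the empty arrays, and 891 and 1044 without replicates 2 and 3 of the LOX-PP arrays. Of the calls 58.4% were higher on the LOX-PP arrays, and 48.0% under quantile normalization. The cause was not tested. The slide as a block equals leaving out LOX-PP replicate 1 (2065 probes). No difference of NKX2-2, NKX2-4, NKX2-5, NKX3-2 or NKX6-1 changed sign in the 13 alternatives. Among these, median scaling, the authors' values and the replicate block gave the main differences again by construction. The slide block repeats those without LOX-PP replicate 1, also where calls are counted over alternatives. Nothing about stability is read from these repeats.

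With a replicate block 895 probes and 12 list genes passed, while the NKX and neighbour counts stayed at 2 and 6. Deviations from the group means correlated between samples of one number at 0.27, -0.39 and 0.23 for replicates 1 to 3. With 3 arrays per group these values cannot decide whether samples of one number came from the same experiment.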
